A study of Mus musculus with 2 samples.

Results

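The replication-dependent histone genes are the genes that supply the histones packed onto newly copied DNA. Their members were taken by name: each gene of the feature lists whose symbol starts with Hist1h, Hist2h, Hist3h or Hist4h, which gave 67 of 32285 genes. They comprise 6 genes of the linker histone H1, 18 of H2A, 18 of H2B, 12 of H3 and 13 of H4. By name, 54 belong to the Hist1 group, 10 to Hist2, 2 to Hist3 and 1 to Hist4. Levels were read in single cells from MC38 tumours (MC38 is a mouse colon carcinoma line) grown in female C57BL/6 mice and harvested on day 14, from mice given LC427 (a compound known here only by that code name) or vehicle. Each group is 1 library. The tumours were digested, dead cells were removed and CD45+ cells were collected with magnetic beads, so tumour cells and stroma are present only as far as they passed the beads. The title of the series names LRBA as the target and CTLA4 as the protein affected. Mouse age, the dose and the number of mice behind each library are not given in the sources used here. With 1 library a group, no difference below has a replicate check.

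In dividing animal cells the core histones H2A, H2B, H3 and H4 and the linker histone H1 are made from many short, mostly intronless genes that lie in clusters. Their transcription is driven by NPAT at the start of S phase, and the mRNAs are cleared when DNA synthesis ends. These mRNAs are the exception among animal mRNAs in that they end in a conserved stem-loop, bound by SLBP, in place of a poly(A) tail. Replacement histones such as H2A.Z and H3.3 come from separate genes with ordinary poly(A) mRNAs that are used throughout the cell cycle. The 10x 5′ chemistry of these libraries starts reverse transcription at poly(A), so a mature stem-loop mRNA is captured poorly, and the values below are levels of the captured molecules only.

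The 3′ stem-loop is the feature that sets these mRNAs apart, so it is printed here for members that the results turn on. In the GENCODE vM21 transcripts (GRCm38.p6), a 16-base stem-loop with a 6-base stem and a 4-base loop was found within 150 bases of the stop codon in 46 of the 67 members. No such sequence was found in the annotated transcript of 21 members. The search could not go past the annotated end, and several of these annotations are short, at 393 bases in Hist1h2ai and 312 bases in Hist1h4k. A stem-loop beyond that end would not have been seen. Other annotations are long, as that of Hist2h2be with 2620 bases. The search also took only perfectly paired stems that start with GG and loops with set first letters, so a variant would have been missed. These members therefore cannot be said to lack a stem-loop. Capitals mark both arms of the stem, and the loop lies between them in lower case.
Hist1h2ae: aacaaaGGCTCTtttcAGAGCCattcac
Hist1h1e: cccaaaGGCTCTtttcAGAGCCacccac
Hist1h3c: aaaaaaGGCTCTtttaAGAGCCacctaa
Hist3h2a: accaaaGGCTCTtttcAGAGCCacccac
Hist1h4d: accaaaGGCCCTtttcAGGGCCactacc
Hist1h4i: cttaaaGGCCCTttttAGGGCCaccaca
The 46 genes carried only 8 distinct stem-loops. The stem GGCTCT stood in 4 H1, 11 H2A, 10 H2B and 9 H3 genes, while the stem GGCCCT stood in 10 H4 genes and GGTCCT in 2 H4 genes. The stem thus set the H4 genes apart from the other families, which shared 1 stem, and Hist3h2a, whose level in these cells differed from that of most members (below), carried the same stem and loop as Hist1h2ae and Hist1h1e.

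Promoters are printed for 3 strongly detected members of different families, as the 150 bases before the RefSeq start (GRCm38.p6), 5′ to 3′ on the gene's strand. Capitals mark TATAAA and CCAAT as well as GGTCC and the octamer ATTTGCAT on either strand.
Hist1h4d, chr13:23581418-23581567, plus strand: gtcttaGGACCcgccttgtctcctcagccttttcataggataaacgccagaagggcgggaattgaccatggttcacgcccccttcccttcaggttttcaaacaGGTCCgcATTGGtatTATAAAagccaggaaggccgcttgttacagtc
Hist1h2ae, chr13:23571221-23571370, minus strand: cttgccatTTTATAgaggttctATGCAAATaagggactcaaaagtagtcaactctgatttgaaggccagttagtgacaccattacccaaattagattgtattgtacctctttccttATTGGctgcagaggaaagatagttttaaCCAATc
Hist1h1e, chr13:23622559-23622708, minus strand: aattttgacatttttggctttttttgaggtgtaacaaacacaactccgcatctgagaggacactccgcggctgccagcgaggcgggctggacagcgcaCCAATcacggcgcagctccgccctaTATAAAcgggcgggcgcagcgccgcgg
A RefSeq promoter window (250 bases before to 50 after the start) was matched for 61 of 67 members. CCAAT stood on either strand in 52 of 61 windows (85.2%), against 37.4% of all 32851 promoters. It was in each of the 5 H1, 18 H2A, 16 H2B and 10 H3 windows, and in 3 of 12 H4 windows. TATAAA stood in 34 of 61 (55.7%, against 13.6% of all promoters). The octamer ATTTGCAT, known from histone H2B promoters, stood in 13 (21.3%, against 1.74%), which were 7 of 18 H2A and 6 of 16 H2B windows. GGTCC, the core of an element known from H4 promoters, stood in 26 (42.6%, against 45.5% of all promoters), of which 11 were among the 12 H4 windows. Neighbours on opposite strands can share part of a window: Hist1h2ae (minus strand) begins at chr13:23571220 and Hist1h2bg (plus strand) at chr13:23571396. The same match can then count for an H2A and an H2B gene, so the counts of these families are not independent. These are matches of letters only.

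The LC427 library held 28732435 UMIs (unique molecular identifiers, 1 per captured molecule) and the vehicle library 33711726. After filters, 6008 LC427 and 5025 vehicle cells remained, with medians of 2353 and 3494 UMIs a cell. Filters removed 12 LC427 and 137 vehicle barcodes for mitochondrial share, 320 and 220 probable doublets were left out, and 47 cell barcodes occur in both libraries. A cell with at least 1 UMI of Mki67 or Top2a, genes used by proliferating cells, is called cycling here, which took 1375 LC427 cells (22.9%) and 1179 vehicle cells (23.5%). A shallow cell can miss such a UMI, so the remaining cells, called other cells, also hold proliferating ones. Clusters were formed without the histone genes and without the cell-cycle genes of the gate and of the lists used below. They gave 389 LC427 and 272 vehicle CD8 T-like cells (Cd8a in 71.7% and 87.5% of cells), and 4083 and 3450 macrophage-like cells (C1qa in 65.5% and 78.8%). There were 159 and 358 NK-like cells, led by granzyme genes (Klrb1c in 50.9% and 50.8%, Ncr1 in 15.7% and 33.0%), and 381 and 230 dendritic-like cells (Ccr7 in 43.3% and 62.2%). The cluster that the tumour-like markers selected had 367 LC427 and 181 vehicle cells. Tm4sf1 was found in 90.5% and 95.6% of them and Sox9 in 77.7% and 92.3%, but of the epithelial markers Krt18 and Krt19 were at 0 and Epcam was in 0.272% and 0% of cells. The fibroblast marker Col3a1 was in 85.0% and 94.5% and Ptprc, which encodes CD45, in 5.72% and 7.18%, so these are called Tm4sf1 Sox9 cells here.

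Cycling cells had a higher summed histone level than other cells of the same group in each of the 10 strata (5 cell groups in 2 libraries). The summed level is given in CPM, the usual scaling of the UMIs of all 67 genes to the total UMIs of the stratum. A molecule gives 1 UMI whatever its length, so levels of different genes were not divided by length. Brackets hold exact 95% Poisson intervals for sums and exact conditional binomial intervals for ratios. Both cover counting error only and are too narrow, since UMIs of 1 cell are not independent.

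In the LC427 library, cycling CD8 T-like cells had 3024 CPM (2877 to 3176) and other CD8 T-like cells 603 CPM (526 to 688), a ratio of 5.02 (4.36 to 5.80). In the vehicle library the values were 2469 CPM (2363 to 2578) in cycling and 350 CPM (291 to 418) in other CD8 T-like cells, a ratio of 7.05 (5.87 to 8.53). The CD8 T-like cells had the highest cycling level of the 5 groups in both libraries. Macrophage-like cells had 1837 CPM (1789 to 1886) in cycling and 341 CPM (329 to 354) in other LC427 cells, a ratio of 5.38 (5.15 to 5.63). In vehicle macrophage-like cells the levels were 1956 CPM (1914 to 1998) and 292 CPM (282 to 302), a ratio of 6.70 (6.43 to 6.98). Both ratios pool clusters that differ in level. A cluster led by Ccl12, 88.4% cycling over both libraries, had 3051 and 3021 CPM in cycling cells with LC427 and vehicle. Within the Arg1 cluster, cycling and other cells had 546 and 283 CPM with LC427 and 364 and 219 CPM with vehicle. In another Ccl12-led cluster LC427 cells went the other way, at 340 and 422 CPM. Cycling cells were the higher in each further cluster and library with at least 20 cycling cells. The macrophage-like group was the largest by cells, yet its cycling cells stood below the CD8 T-like and Tm4sf1 Sox9 cells in each library.

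Cycling Tm4sf1 Sox9 cells had 2795 CPM (2741 to 2849) with LC427, against 507 CPM (461 to 557) in the other cells of that library, a ratio of 5.51 (5.01 to 6.07). With vehicle, cycling Tm4sf1 Sox9 cells had 2114 CPM (2065 to 2165) and other ones 596 CPM (542 to 654), a ratio of 3.55 (3.22 to 3.92), the lowest of the 10 ratios. NK-like cells had 1707 CPM (1421 to 2034) in the 26 cycling and 372 CPM (300.2 to 456) in the 133 other LC427 cells, a ratio of 4.59 (3.48 to 6.07). Vehicle NK-like cells had 1274 CPM (1165 to 1390) in 66 cycling and 305 CPM (274 to 339) in 292 other cells, a ratio of 4.17 (3.63 to 4.79). The intervals of both NK-like ratios overlap. Dendritic-like cells had 1560 CPM (1402 to 1730) in 49 cycling and 284 CPM (251 to 320.2) in 332 other LC427 cells, a ratio of 5.50 (4.67 to 6.47). Vehicle dendritic-like cells had 1707 CPM (1559 to 1866) in 34 cycling and 160 CPM (134 to 189) in 196 other cells, a ratio of 10.7 (8.83 to 13.02), the highest of the 10.

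**Figure D1:**
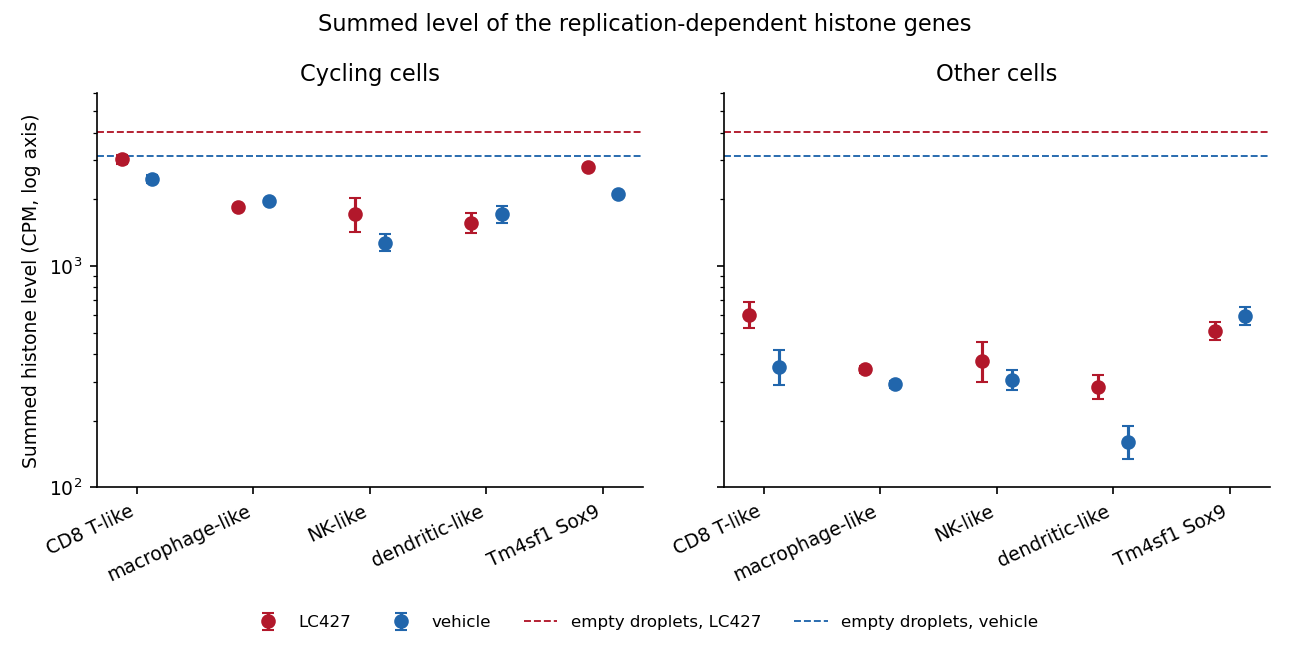
Summed level of the 67 histone genes (CPM, log axis) in cycling cells (left panel) and other cells (right panel) of 5 cell groups, with LC427 left of vehicle, bars for the 95% counting interval and dashed lines for the empty droplets of each library. Cycling cells lie between 1274 and 3024 CPM and other cells between 160 and 603 CPM, while the empty droplets lie at 4016 and 3147 CPM, above each of the 20 values for cells.

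Cycling cells were also deeper, which is a measured difference beside these ratios: the median was 3778 UMIs in cycling and 2138 in other macrophage-like cells with LC427, and 5701 and 3252 with vehicle. Cells were therefore thinned to 1000 UMIs each and sorted into cycling and other again. Of the thinned macrophage-like cells, 59.8% of cycling and 28.7% of other LC427 cells had a histone UMI (77.2% and 49.5% before thinning), and 65.1% and 26.2% in the vehicle library (81.2% and 53.9% before thinning). Of the thinned Tm4sf1 Sox9 cells, 79.2% of cycling and 45.9% of other LC427 cells had one, and 73.2% and 45.6% with vehicle. The order of cycling above other was thus present at equal depth, as in the CPM. No cell group here can be taken to lack histone mRNA, so these shares have no cell group as a background. The free RNA of the droplets is given at the end.

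Cycling cells made up 16.7% of LC427 and 19.8% of vehicle macrophage-like cells, and held 64.7% and 72.5% of the histone UMIs of that group. In CD8 T-like cells, where 49.9% and 54.0% were cycling, they held 87.9% and 94.3%. In Tm4sf1 Sox9 cells, with 67.8% and 71.3% cycling, they held 95.9% and 94.0%. Since cycling cells were deeper, the share of all UMIs is the closer baseline. Of all UMIs, cycling cells held 25.4% and 28.2% in macrophage-like, 59.1% and 70.3% in CD8 T-like and 80.8% and 81.6% in Tm4sf1 Sox9 cells. Over all cells, cycling or not, the histone level was 2033 CPM with LC427 and 1839 CPM with vehicle in the CD8 T-like group, against 721 and 761 CPM in the macrophage-like group.

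Most histone genes with enough UMIs took part in the difference. A member was compared where both sums together held at least 20 UMIs, and it was called apart at 1.5-fold. A member passes this minimum mainly through its cycling cells, so the counts describe the measured members and lend no support to a direction. In macrophage-like cells 43 of 47 members compared were higher in cycling LC427 cells and 2 were lower, where 11.4% of all genes compared were called higher and 8.01% lower. In the vehicle macrophage-like cells 47 of 54 were higher and 2 lower, with 13% and 6.44% of all genes. The median log2 ratio of the members was 2.53 with LC427 and 3.16 with vehicle, where that of all genes was 0.01 and 0.04. In Tm4sf1 Sox9 cells 43 of 47 members were higher and 0 lower with LC427 (background 13.1% and 15.6%), and 34 of 39 were higher and 2 lower with vehicle (19.8% and 13.1%). In CD8 T-like cells 24 of 24 members compared were higher with LC427 (background 16.7% higher and 9.5% lower), and 27 of 27 with vehicle (19.7% and 10.4%). Fewer members could be compared in the small groups: 8 of 9 were higher in LC427 dendritic-like cells (background 16.4% higher and 20.9% lower) and 9 of 9 with vehicle (18.9% and 21.3%), and 2 of 2 in LC427 NK-like cells (14.4% and 19.9%) and 10 of 12 with vehicle, where 1 was lower (15.9% and 11.5%).

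The level was concentrated in a few genes. Over the cycling cells of the 5 groups together, 10 members exceeded 50 CPM (mean of both libraries), and these held 67.1% of the histone UMIs with LC427 and 66.8% with vehicle. The 20 highest members held 83.0% and 81.7%. Of the 67 members, 63 had at least 20 UMIs in the cells compared. Hist1h2ba, Hist1h2bq and the testis H1 gene Hist1h1t had 1 to 19, and Hist1h2aa had none. Single-gene levels below that name no cell group are over the 5 groups together, which are mixed differently in cycling and other cells. With LC427, Tm4sf1 Sox9 cells gave 3688994 UMIs in cycling and 878970 in other cells, and macrophage-like cells 3009466 and 8837425. With vehicle the values were 3291131 and 741863, and 4327382 and 11018085. Ratios over the 5 groups, also those by position and 3′ end, thus mix cell group with cycling.

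The H2A genes, whose product pairs with H2B in the nucleosome, were the most abundant family in cycling cells of each cell group and library. They also had the largest family ratio of cycling over other cells in each stratum but LC427 CD8 T-like cells, where it was 6.31 for H1, 5.92 for H2B and 5.83 for H2A. Hist1h2ap had 310 CPM in cycling and 13.1 CPM in other LC427 cells, a ratio of 23.6, and 217 and 4.53 CPM with vehicle, a ratio of 47.8. Hist1h2ao had 193 and 6.48 CPM with LC427 (ratio 29.7) and 146 and 3.83 CPM with vehicle (38.2). They lie in the proximal chromosome 13 block, at chr13:21833026-21833507 (minus strand) and chr13:21810465-21810944 (plus strand). Of their 90-base windows, 92.4% and 92.8% also occur in another member. How the authors' counting treated reads that match several copies was not checked, so these levels may be too low. At least 50% of windows were shared in 26 of the 67 members. The part of this sharing in the ranking of genes and families was not tested. Hist1h2ae (chr13:23570517-23571220, minus strand, 1 exon), with 31.9% of windows shared, had 249 CPM in cycling and 12.7 CPM in other LC427 cells (19.6) and 214 and 11.2 CPM with vehicle (19.1). Over the family, cycling macrophage-like cells had 810 CPM of H2A with LC427 and 817 CPM with vehicle, against 85.9 and 61.3 CPM in their other cells.

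The H1 genes encode linker histones, which bind the DNA between nucleosomes. Hist1h1e (chr13:23620629-23622558, minus strand) had 192 CPM in cycling and 20.2 CPM in other LC427 cells, a ratio of 9.54. With vehicle it had 182 and 15.5 CPM, a ratio of 11.7. Hist1h2be overlaps Hist1h1e on the same strand. How reads in the overlap were counted was not checked, so the Hist1h1e level may be affected either way. Hist1h1b, with no window shared with another member, had 168 and 11.1 CPM with LC427 (15.1) and 167 and 5.74 CPM with vehicle (29.0). Hist1h1c had the flattest profile of the abundant H1 genes, with 68.0 and 38.4 CPM with LC427 (1.77) and 80.2 and 52.2 CPM with vehicle (1.54). Hist1h1a differed between cell groups: cycling CD8 T-like cells had 36.1 CPM with LC427 and 18.2 CPM with vehicle and cycling macrophage-like cells 15.6 and 28.7 CPM. In cycling Tm4sf1 Sox9 cells it had 0 UMIs with LC427, which allows up to 0.813 CPM, and 4 UMIs or 1.22 CPM with vehicle.

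Among the H4 genes, whose product pairs with H3, Hist1h4d (chr13:23581598-23582735, plus strand) was the most abundant. It had 161 CPM in cycling and 34.6 CPM in other LC427 cells, a ratio of 4.67, and 117 and 18.3 CPM with vehicle, a ratio of 6.40. It shared 0.858% of its windows with other members. Hist1h4i had 77.6 and 11.9 CPM with LC427 (6.52) and 71.4 and 12.8 CPM with vehicle (5.56). Hist1h4d was first in cycling CD8 T-like cells by the mean of both libraries, at 387 CPM with LC427 and 199 CPM with vehicle, while Hist1h2ap was first by that mean in the remaining 4 groups. The H3 genes were lower: Hist1h3e, the highest, had 45.7 CPM in cycling and 11.01 CPM in other LC427 cells, and 37.9 and 8.50 CPM with vehicle.

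The H2B genes had the smallest ratios of the families in several groups. In Tm4sf1 Sox9 cells the H2B ratio of cycling over other cells was 1.58 with LC427 and 1.09 with vehicle, where the H2A ratio was 13.5 and 10.3. Hist1h2bc, an H2B gene annotated with 2 exons, had 159 CPM in cycling and 168 CPM in other LC427 Tm4sf1 Sox9 cells and 133 and 225 CPM with vehicle. In macrophage-like cells it had 36.6 and 23.9 CPM with LC427 and 49.2 and 48.0 CPM with vehicle, while in CD8 T-like cells it had 39.9 and 8.22 CPM with LC427 and 48.5 and 5.74 CPM with vehicle. Hist1h2bc was therefore close to its cycling level in other LC427 Tm4sf1 Sox9 and other vehicle macrophage-like cells, and above it in other vehicle Tm4sf1 Sox9 cells. Hist2h2bb, by comparison, had ratios of 11.6 and 18.4 over the 5 groups together.

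A small set of genes stood outside the pattern. Of the 54 members with at least 20 UMIs in cycling cells of both libraries, 49 were at least 1.5-fold and 35 at least 5-fold higher in cycling than in other cells of both. The remaining 5 were Hist3h2a, Hist2h2aa1, Hist2h2aa2, Hist2h2be and Hist1h2bc. This minimum was on cycling cells only, so it favours members that are high there, and these counts lend no support to a direction. No share over all genes under this minimum is given here. Hist3h2a (chr11:58954685-58956830, plus strand) went the other way, with 5.85 CPM in cycling and 16.7 CPM in other LC427 cells (ratio 0.350) and 5.26 and 13.4 CPM with vehicle (0.393). Within macrophage-like cells alone it had 10.97 and 19.1 CPM with LC427 and 8.55 and 16.1 CPM with vehicle. Hist2h2aa2 had ratios of 0.959 and 0.889, Hist2h2aa1 of 1.41 and 1.18, Hist2h2be of 1.47 and 0.853 and Hist1h2bc of 2.85 and 1.43. Hist4h4, the only member on chromosome 6, had 1.77 and 1.92. Each of these ratios is over the 5 groups together and so also holds the mix of cell groups. Hist2h2aa2 shares 100% and Hist2h2aa1 88.3% of its 90-base windows with other members. How fully the counts of these copies cover their mRNA is therefore uncertain. Over the 5 groups together, 53 of 59 members compared were higher in cycling LC427 cells and 3 lower (background 29.2% and 16.3%), and 51 of 59 were higher and 3 lower with vehicle (30.8% and 11.7%).

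**Figure D2:**
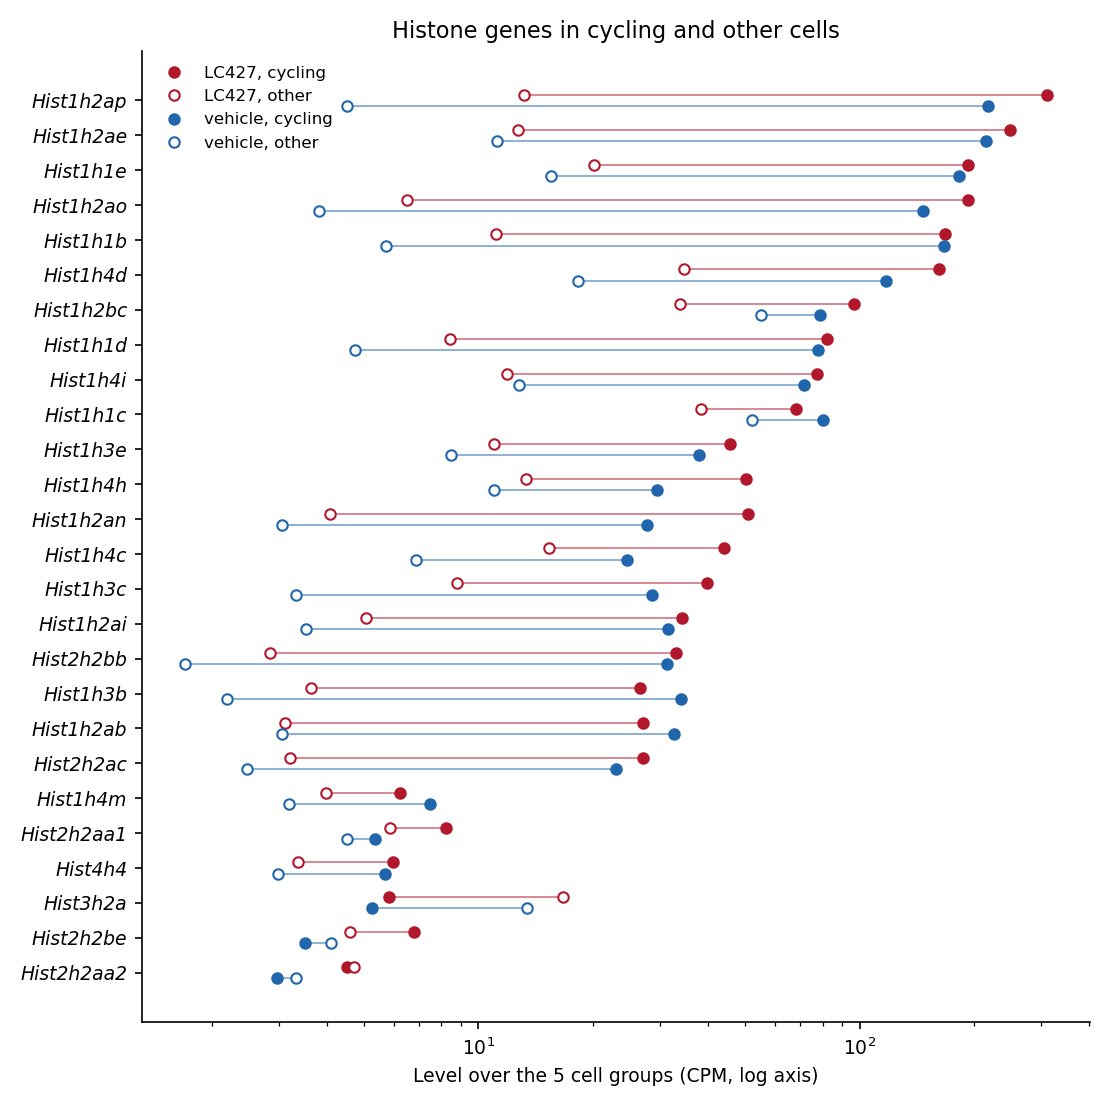
Level of 26 histone genes (CPM over the 5 cell groups, log axis) in cycling cells (filled) and other cells (open), with LC427 drawn above vehicle for each gene. Most genes span a 5-fold or wider gap, Hist1h2ap with 310 CPM in cycling and 13.1 CPM in other LC427 cells, while Hist2h2aa2 and Hist2h2be lie close together and Hist3h2a has its open points to the right of its filled ones.

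Of these 5 genes, 4 lie outside chromosome 13, among them Hist2h2aa1 and Hist2h2aa2 with their shared sequence. By position, the 31 genes of the distal chromosome 13 block (chr13:23531050-23934851) held 53.0% of the cycling histone level with LC427 and 54.3% with vehicle, with ratios of cycling over other cells of 5.39 and 5.18. The 18 genes of the proximal block (chr13:21715763-21837530) held 35.9% and 33.7%, with ratios of 14.7 and 20.2, and the 5 genes between them 6.17% and 6.87%, with ratios of 8.48 and 7.87. The 10 genes of chromosome 3 (chr3:96219865-96270132) had ratios of 3.73 and 4.16. The 2 genes of chromosome 11 (chr11:58948920-58956830) had ratios of 0.372 and 0.449.

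The annotated 3′ ends also differed between members. In 15 members the last 60 bases of a GENCODE transcript hold AATAAA, the poly(A) signal, and 9 of these had 20 UMIs in cycling cells of each library, with a median ratio of 2.14 with LC427 and 3.20 with vehicle. The class ran widely, and held both Hist3h2a and Hist1h2ae. The 20 measured members whose annotation ends within 100 bases of the stem-loop had medians of 7.41 and 10.0. The 11 with a longer end and no AATAAA had 5.51 and 6.40, and the 14 with no stem-loop found and no AATAAA had 7.55 and 15.3. That last class may reflect where the annotation ends, since sequence past it was not searched, or the strict match that was used. Members entered these medians by their UMIs in cycling cells only, which favours high ratios. Whether the captured molecules carry a poly(A) tail was not tested.

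Genes around the histone supply were read from 5 lists, in macrophage-like cells, the largest group. Of all genes compared in these cells, 11.4% were higher and 8.01% lower in cycling cells with LC427, and 13% and 6.44% with vehicle, which is the background for each list count here. Of the 10 replacement histone genes, 4 were higher and 0 lower in cycling cells with LC427, and 6 and 0 with vehicle. H2afx, which encodes the DNA-damage-linked H2A.X, had 97.7 CPM in cycling and 11.4 CPM in other LC427 cells (ratio 8.55) and 99.8 and 12.3 CPM with vehicle (8.09). Cenpa, the centromeric H3, had ratios of 6.42 and 6.89 and H2afv, an H2A.Z gene, of 3.63 and 4.40. H3f3b, which encodes the replacement histone H3.3, had 1389 and 1284 CPM with LC427 (1.08) and 1602 and 1271 CPM with vehicle (1.26). The captured H3f3b level in other cells was thus many times that of all 12 replication-dependent H3 genes there, at 44.4 CPM with LC427 and 27.5 CPM with vehicle. H3f3b mRNA has a poly(A) tail while stem-loop mRNAs are captured poorly, so this contrast does not compare true mRNA amounts.

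Of the 12 genes of histone gene transcription and 3′ end processing that could be compared, 6 were higher with LC427 and 5 with vehicle, and 0 were lower in either. Slbp, the stem-loop binding protein, had 115 CPM in cycling and 56.8 CPM in other LC427 cells (2.02) and 90.4 and 39.7 CPM with vehicle (2.28). Npat had ratios of 2.11 and 1.54, Lsm11 of the U7 particle 2.77 and 1.60, and Eri1, a 3′ exonuclease that acts on histone mRNA, 1.90 and 2.23. Of the 16 chaperone and acetylation genes, 10 were higher with LC427 and 11 with vehicle, and 0 were lower in either. Asf1b, an H3-H4 chaperone, had 27.2 and 3.51 CPM with LC427 (7.77) and 36.7 and 3.36 CPM with vehicle (10.9), and the CAF-1 subunit gene Chaf1a had ratios of 3.97 and 4.17. All 28 DNA replication genes and all 30 mitosis genes were higher in cycling macrophage-like cells of both libraries. The gate itself picks proliferating cells by Mki67 or Top2a, so this outcome follows largely from the gate and is no separate result. The median log2 ratio was 0.40 and 1.20 for the replacement histones, 0.54 and 0.56 for transcription and processing, 0.75 and 1.08 for the chaperones, 1.83 and 1.99 for DNA replication and 3.73 and 4.12 for mitosis. The members' medians of 2.53 and 3.16 stood between those of the replication and mitosis lists. The part of the gate in this order was not tested.

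Within cycling cells, histone levels were lower in cells with more replication than mitosis UMIs. Cycling cells were divided by which list had more UMIs, the 28 DNA replication genes or the 30 mitosis genes, and cells with a tie were left out. In LC427 macrophage-like cells the level was 1385 CPM in 287 replication-heavy and 2487 CPM in 301 mitosis-heavy cells, a ratio of 0.557 (0.527 to 0.589), and with vehicle 1522 CPM in 255 and 2414 CPM in 350 cells, a ratio of 0.631 (0.602 to 0.661). In Tm4sf1 Sox9 cells the levels were 2174 and 3286 CPM with LC427 (0.662) and 1608 and 2590 CPM with vehicle (0.621). In CD8 T-like cells they were 2360 and 4022 CPM with LC427 (0.587) and 2161 and 2890 CPM with vehicle (0.748). The ratio was below 1 in each of the 10 strata, from 0.357 in LC427 NK-like cells (13 and 11 cells) to 0.769 in LC427 dendritic-like cells (21 and 23 cells).

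Of the 39 members with at least 20 UMIs in both kinds of cell in both libraries, 37 were lower in replication-heavy cells of both, 17 of them by 1.5-fold or more in both. Hist1h1a was higher in both, with ratios of 1.47 and 1.12, and Hist1h2ah had 1.07 with LC427 and 0.473 with vehicle. Of 55 members compared in LC427 cells, 31 were at least 1.5-fold lower and 1 higher, where 7.39% of all genes were lower and 7.24% higher. With vehicle 31 of 54 were lower and 2 higher (7.19% and 9.11%). The members' median log2 ratio was -0.66 and -0.62, and that of all genes 0.01 in both libraries. The split compares captured UMIs of the list genes and is not a call of cell-cycle phase.

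**Figure D3:**
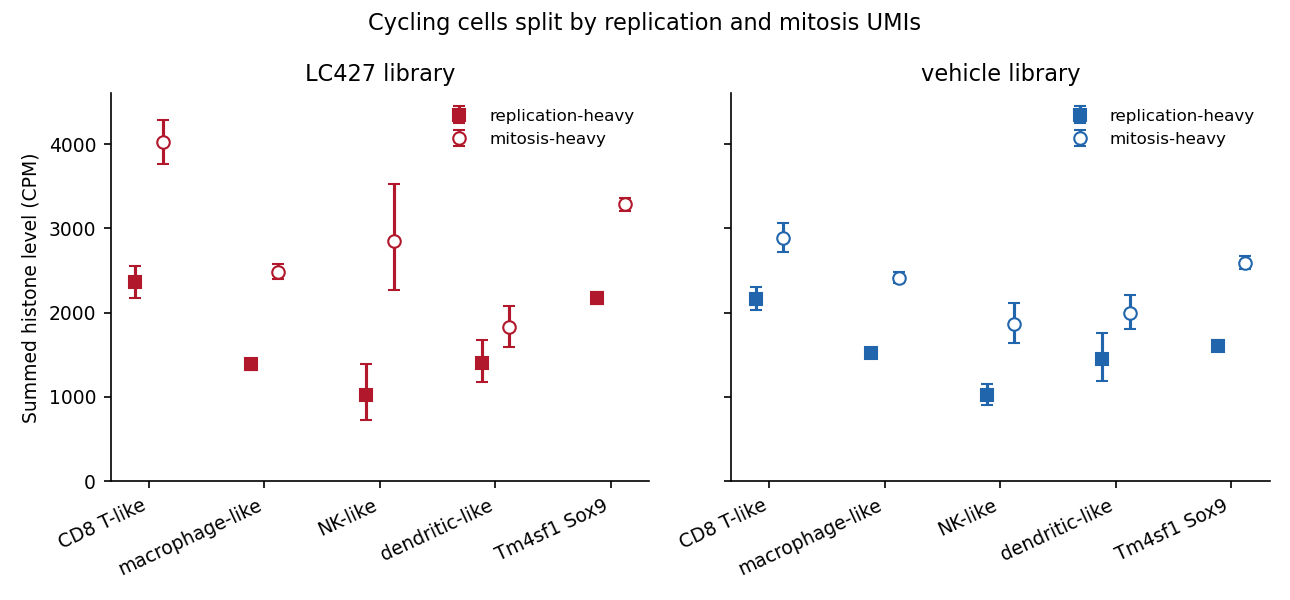
Summed histone level (CPM) of replication-heavy cycling cells (filled squares) and mitosis-heavy cycling cells (open circles) in 5 cell groups, with LC427 in the left panel, vehicle in the right and bars for the 95% counting interval. The filled square lies below the open circle in each of the 10 pairs, at 1385 and 2487 CPM in LC427 macrophage-like cells.

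Between LC427 and vehicle, the direction differed between cell groups. In cycling Tm4sf1 Sox9 cells the summed level was 2795 CPM with LC427 and 2114 CPM with vehicle, a ratio of 1.32 (1.28 to 1.36), and 21 of 51 members compared were higher and 0 lower, where 8.58% of all genes were higher and 11.1% lower. The members' median log2 ratio was 0.53, and that of all genes 0.01. In cycling CD8 T-like cells the ratio was 1.22 (1.15 to 1.31), with 8 of 34 members higher and 4 lower (background 15.1% and 12.4%). The share of lower members was near its background, and that of higher members lay above its background by a few genes only. Cycling NK-like cells had 1.34 (1.09 to 1.63), from 125 and 504 histone UMIs, with 3 of 9 members higher and 1 lower (23.5% and 22.4%). Cycling macrophage-like cells had 0.939 (0.908 to 0.972), with 6 of 53 higher and 8 lower (10.8% and 7.4%), and dendritic-like cells 0.914 (0.795 to 1.05), with 1 higher and 1 lower of 9 (17.2% and 13.8%). The dendritic-like interval includes 1, so no difference was detectable there at this depth. The direction depended on the processing in 3 groups: with at least 2000 UMIs a cell the NK-like ratio was 0.637, and with cells named by their own markers the macrophage-like ratio was 1.06 and the dendritic-like ratio 1.80.

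In Tm4sf1 Sox9 cells the higher members spanned families. Hist1h2ap had 391 CPM with LC427 and 225 CPM with vehicle (1.74, 1.59 to 1.90), and Hist1h4d 136 and 76.3 CPM (1.78, 1.53 to 2.08). Hist1h4c had 41.5 and 16.4 CPM (2.53, 1.84 to 3.51), Hist1h3c 33.3 and 12.8 CPM (2.61, 1.83 to 3.80) and Hist1h2an 42.8 and 18.8 CPM (2.27, 1.68 to 3.10). By family the ratio was 1.60 (1.41 to 1.81) for H3, 1.55 (1.47 to 1.62) for H2A and 1.32 (1.22 to 1.43) for H4, but 1.10 for H2B and 1.09 for H1. The replication list had 3 of 28 genes higher and 1 lower in the same cells, and the mitosis list 3 of 30 higher and 0 lower, shares of higher genes near the 8.58% of all genes. H2afx, a replacement histone, was lower, at 97.3 CPM with LC427 and 193 CPM with vehicle (0.504). Both the replication-heavy (1.35) and the mitosis-heavy cells (1.27) of this group had the higher level with LC427.

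H4 was the only family with a ratio of LC427 to vehicle above 1 in cycling cells of all 5 groups. It had 767 CPM with LC427 and 431 CPM with vehicle in CD8 T-like cells (1.78, 1.54 to 2.06), 306 and 256 CPM in macrophage-like cells (1.19, 1.09 to 1.30) and 369 and 217 CPM in NK-like cells (1.70, 1.06 to 2.64). In dendritic-like cells it had 284 and 168 CPM (1.69, 1.14 to 2.50), and in Tm4sf1 Sox9 cells 421 and 319 CPM (1.32). In CD8 T-like cells the H4 genes behind this were Hist1h4d at 387 and 199 CPM (1.95, 1.58 to 2.41), Hist1h4c at 139 and 61.9 CPM (2.24, 1.54 to 3.27) and Hist1h4h at 103 and 47.3 CPM (2.17, 1.41 to 3.36). Free RNA moved the same way: the empty droplets had 1396 CPM of H4 with LC427 and 969 CPM with vehicle, and its part in the H4 difference was not tested. H1 went the other way in macrophage-like cells, with 347 CPM with LC427 and 483 CPM with vehicle (0.717, 0.665 to 0.773), and in dendritic-like cells, with 371 and 515 CPM (0.721, 0.545 to 0.948). Hist1h1e in cycling dendritic-like cells had 100.5 and 175 CPM (0.573, 0.334 to 0.957).

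In cycling macrophage-like cells the members apart were split by gene. Hist1h2an had 48.8 CPM with LC427 and 25.4 CPM with vehicle (1.92, 1.49 to 2.48), Hist1h4h 42.9 and 27.0 CPM (1.59), Hist2h2be 7.64 and 3.47 CPM (2.20) and Hist1h2bk 11.3 and 6.47 CPM (1.75). Hist1h1a had 15.6 and 28.7 CPM (0.545, 0.381 to 0.768) and Hist1h3b 32.2 and 49.2 CPM (0.655, 0.510 to 0.836). The make-up of this group differed between libraries: its largest cluster was led by Arg1 with LC427 (1120 LC427 and 373 vehicle cells) and by Pf4 with vehicle (414 LC427 and 732 vehicle cells). The cluster with the largest number of cycling cells, led by Ccl12, held 301 of the 683 LC427 and 301 of the 682 vehicle cycling cells. Its level was nearly the same in both libraries, 3051 CPM (2962 to 3142) with LC427 and 3021 CPM (2948 to 3095) with vehicle. Cycling cells of the Arg1 cluster had 546 CPM (479.6 to 620) with LC427 and 364 CPM (268 to 485) with vehicle. Those of the cluster led by Ccl8 had 715 CPM (625 to 814) and 502 CPM (435 to 576), with intervals that do not overlap. Cycling cells of the Pf4 cluster had 1083 and 946 CPM and those of the Nos2 cluster 441 and 336 CPM, with overlapping intervals in both clusters, and those of a further cluster led by Ccl12 had 340 and 454 CPM. The LC427 level was thus the higher in 5 of the 6 clusters with at least 20 cycling cells in each library, the opposite of the group's ratio. The level differed more between clusters than between libraries within these clusters, and the group's ratio of 0.939 is a value over clusters in different proportions.

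In other cells the LC427 level, as counted, was higher in 4 of the 5 groups. With free RNA taken off, as described below, the ratio fell below 1 in macrophage-like cells (0.297) and NK-like cells (0.595). In CD8 T-like cells it became 2.22 and in Tm4sf1 Sox9 cells 3.79. In dendritic-like cells the estimate of free RNA was above the histone level. It was 1424 against 284 CPM with LC427 and 1353 against 160 CPM with vehicle. No ratio was left there, and the error of the estimate in the remaining groups was not tested. Macrophage-like other cells had 341 CPM with LC427 and 292 CPM with vehicle, a ratio of 1.17 (1.11 to 1.23), and 16 of 44 members were higher and 2 lower (background 12.9% and 6.04%). The members' median log2 ratio was 0.38, and that of all genes 0.15. With both libraries scaled to the median of all genes the summed ratio was 1.06. Hist1h4c had 15.6 and 6.35 CPM (2.46, 1.83 to 3.33), Hist1h3c 8.83 and 3.27 CPM (2.70, 1.80 to 4.13) and Hist1h2ap 11.3 and 4.54 CPM (2.49, 1.76 to 3.58). Hist1h4d had 33.5 and 16.2 CPM (2.07, 1.72 to 2.51) and Hist1h3f 7.69 and 3.18 CPM (2.42, 1.59 to 3.75). Both members called lower are abundant in other cells: Hist1h2bc had 23.9 CPM with LC427 and 48.0 CPM with vehicle (0.497, 0.422 to 0.584) and Hist1h1c 36.8 and 55.4 CPM (0.664, 0.579 to 0.761). So H4, H3 and H2A had ratios of 1.59 (1.43 to 1.77), 1.61 (1.38 to 1.88) and 1.40 (1.26 to 1.56), and H2B of 0.650 (0.571 to 0.739).

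CD8 T-like other cells had 603 CPM with LC427 and 350 CPM with vehicle (1.72, 1.37 to 2.16), of 220 and 122 histone UMIs. Of 2 members compared, Hist1h4c was higher, with 17 UMIs or 46.6 CPM and 3 UMIs or 8.61 CPM (5.41, 1.56 to 28.8; background 18.4% higher and 13.3% lower). Dendritic-like other cells had 284 and 160 CPM (1.78, 1.44 to 2.20), with 3 of 5 members higher and 0 lower (17.3% and 8.93%), among them Hist1h4d at 35.6 and 17.5 CPM (2.04, 1.08 to 4.04). This group pools clusters in different proportions: that led by Plet1 and Ccl17 had 185 LC427 and 64 vehicle cells, that led by Ccl22 and Ccr7 156 and 130, and that led by Plet1 and Sept3 40 and 36. NK-like other cells had 1.22 (0.959 to 1.54), with 1 of 5 higher and 2 lower (24% and 16.9%), and their interval includes 1. Tm4sf1 Sox9 other cells had 507 and 596 CPM (0.852, 0.745 to 0.974), with 1 of 8 higher, Hist1h2ap at 20.5 and 6.74 CPM (3.04, 1.09 to 10.5), and 0 lower (19.8% and 11.6%). Markers of leucocytes moved with that last ratio: 18 such genes summed to 144 CPM in LC427 and 930 CPM in vehicle Tm4sf1 Sox9 other cells, and their part in the result was not tested beyond the subtraction below. With cells thinned to 1000 UMIs the ratio in other cells was 0.982 in CD8 T-like, 0.907 in NK-like and 1.12 in Tm4sf1 Sox9 cells, each on the other side of 1.

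**Figure D4:**
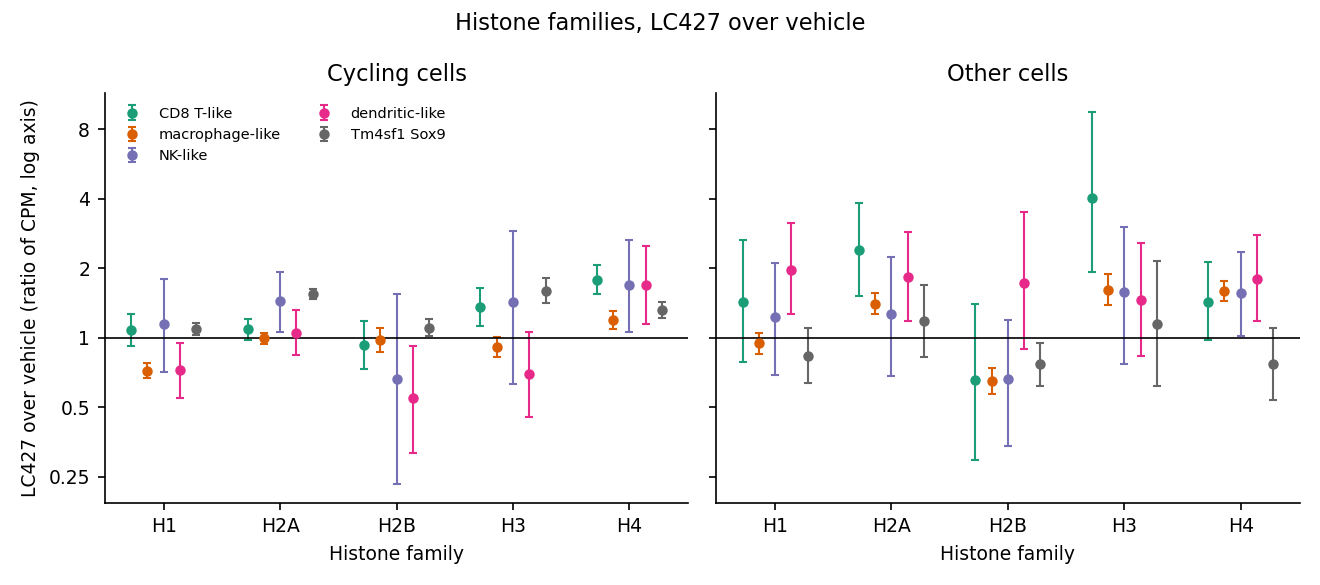
Ratio of the LC427 to the vehicle level (log axis) for the 5 histone families in 5 cell groups (colours), in cycling cells (left panel) and other cells (right panel), with bars for the 95% counting interval. All 5 cycling points for H4 lie above 1, from 1.19 to 1.78, while cycling macrophage-like and dendritic-like points for H1 lie at 0.717 and 0.721.

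Histone mRNA was also abundant outside cells. Empty droplets, taken as barcodes with 10 to 100 UMIs, numbered 71494 with LC427 and 67869 with vehicle, and had 4016 CPM (3944 to 4088) and 3147 CPM (3090 to 3204) of histone UMIs, above each of the 20 values for cycling and other cells. The level of cycling cells over the 5 groups was 0.593 times that of the empty droplets with LC427 and 0.643 times with vehicle. The mix of genes was not that of the cells. Hist1h4d had 161 CPM in cycling cells and 753 CPM in empty droplets with LC427, and 117 and 549 CPM with vehicle. Hist1h4c had 44.2 and 298 CPM with LC427 and 24.6 and 149 CPM with vehicle. Hist1h2ap went the other way, with 310 CPM in cycling cells and 36.6 CPM in empty droplets with LC427 and 217 and 23.6 CPM with vehicle. Hist1h4i also stood higher in cycling cells, with 77.6 and 15.5 CPM with LC427 and 71.4 and 14.4 CPM with vehicle. Of 48 members with enough UMIs in both, 8 were above the empty-droplet level in cycling cells of both libraries and 34 below it. At 1.5-fold, 8 members were higher and 31 lower in LC427 cycling cells, of 58 compared (34.2% and 15.9% of all genes), and 9 higher and 29 lower of 57 with vehicle (40.9% and 8.88%).

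**Figure D5:**
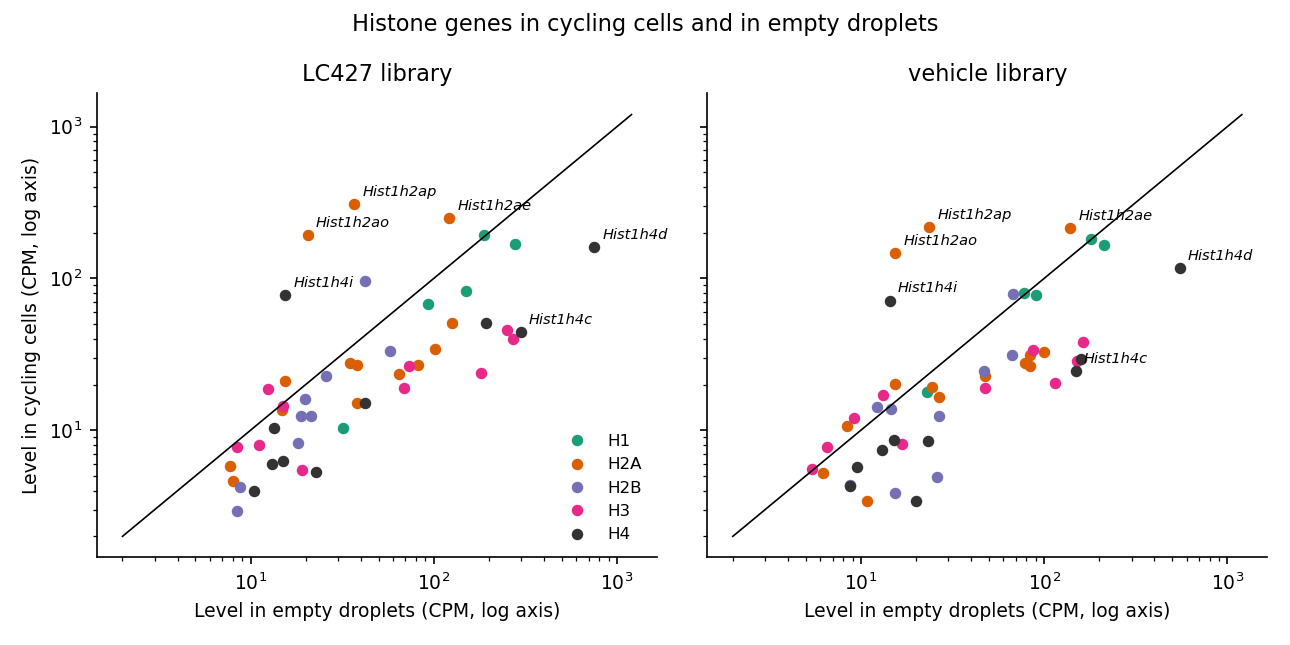
Level of 48 histone genes in cycling cells (vertical, CPM, log axis) against their level in empty droplets (horizontal, CPM, log axis), coloured by family, with the line of equality, LC427 left and vehicle right. Hist1h2ap lies above the line at 310 against 36.6 CPM with LC427, and Hist1h4d below it at 161 against 753 CPM.

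The members that were higher with LC427 in several groups were also higher in the LC427 empty droplets. Hist1h4c had 298 CPM there with LC427 and 149 CPM with vehicle, Hist1h3c 271 and 151 CPM, Hist1h2an 126 and 78.3 CPM and Hist1h2ap 36.6 and 23.6 CPM. The share of free RNA in each stratum was read from marker genes of other cell types, which summed to 7.36% of their empty-droplet level in LC427 and 4.39% in vehicle macrophage-like other cells, where the histone level was 8.50% and 9.28% of the empty-droplet level. With that share taken off, 45.7 CPM with LC427 and 154 CPM with vehicle were left there, so the ratio of 1.17 became 0.297. The same step left 457 and 205 CPM in CD8 T-like other cells and 399.7 and 105 CPM in Tm4sf1 Sox9 other cells. In cycling cells it took off less: 1506 CPM with LC427 and 1811 CPM with vehicle were left in macrophage-like cells and 2709 and 1997 CPM in Tm4sf1 Sox9 cells. In macrophage-like other cells the estimate of free RNA came to 296 of 341 CPM with LC427 and 138 of 292 CPM with vehicle.

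The authors' deposited table of cluster means holds the members in the authors' own clusters. It lists 65 members with LC427 and 66 with vehicle. In the authors' deposited table the summed mean count of the members was highest in cluster 9 of LC427, at 6.97, and 38 of the 65 had their highest mean there. In the vehicle part of the authors' deposited table cluster 11 was highest, at 8.22, with 39 of 66 members highest there. In the authors' deposited table these clusters had mean counts of 0.863 and 1.12 for Cd8a, and of 0.0931 and 0.108 for C1qa.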

How the data were processed

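Single-cell UMI counts per gene and barcode were deposited by the authors for all barcodes, made with Cell Ranger on GRCm38 (mm10). The version is 4 per the file headers and 3.0.1 per the submitters' processing notes, which also name Seurat 3. The authors deposited a table of cluster means per library, per the file headers mean counts per cell, a signal whose values sum to the same total in each cluster of a library and which is used here as the authors' values. Its log2 fold changes were deposited by the authors for each cluster against the other cells of its library and were read but are not printed, and its adjusted p-values, deposited by the authors, were not used.

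Cells had at least 1000 UMIs, 400 genes and at most 10% mitochondrial UMIs. Scrublet scores ranked the cells and the highest 0.8% per 1000 cells were left out as probable doublets, since its automatic threshold called none. Clusters were made with scanpy 1.11.5 and leidenalg 0.10.2 from 2000 variable genes (members and cell-cycle lists left out), 30 principal components, 20 neighbours and resolution 1. They were named only from the marker lists. UMIs were summed per library, cell group and gate and divided by the stratum's total. Intervals were computed with scipy 1.17.1. With 1 library a group no test was run, and a member counted as apart at 1.5-fold with at least 20 UMIs. A level of 0 was bounded by 3 counts. The calculation was tested on simulated counts.

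Named members are the 20 highest in cycling cells by the mean of both libraries. For LC427 against vehicle they are, per cell group and gate, up to 5 each way at 1.5-fold whose interval leaves out 1, ranked by the bound nearest to 1. Genes singled out beyond this rule (Hist3h2a, Hist2h2aa1, Hist2h2aa2, Hist4h4, Hist1h2ah and the 4 least detected members, and H3f3b, Slbp and Npat from the lists) were chosen after their values were seen. The members and lists were chosen with earlier results of these data known. Alternatives changed the UMI minimum, mitochondrial limit, doublets, clustering, cell naming, gate, depth, scaling and thresholds. Genes were matched to GENCODE vM21 (67 of 67) and RefSeq GRCm38.p6 promoters (61 of 67).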

Additional observations from a re-analysis of the deposited data

Results flagged for a closer look

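The ratio of LC427 to vehicle in summed histone level lay on both sides of 1 across cell groups. In cycling cells it was 1.22 in CD8 T-like, 0.939 in macrophage-like, 1.34 in NK-like, 0.914 in dendritic-like and 1.32 in Tm4sf1 Sox9 cells. In other cells it was 1.72 in CD8 T-like, 1.17 in macrophage-like, 1.22 in NK-like, 1.78 in dendritic-like and 0.852 in Tm4sf1 Sox9 cells. Each group is 1 library, so the difference between cell groups was not tested.

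Cycling cells of the 5 groups together had a histone level of 2380 CPM with LC427 and 2022 CPM with vehicle. Empty droplets, which enter no comparison of cell groups, held 4016 CPM with LC427 and 3147 CPM with vehicle. In these droplets Mki67 had 177 CPM with LC427 and 182 CPM with vehicle, and Top2a 268 and 226 CPM.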

How the results depend on the processing

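The ratio of cycling to other cells stayed above 1 in all 128 combinations of stratum and alternative, from 1.27 to 32.9. Its median over strata, 5.44, was 6.52 with cells named by their own markers and 11.1 with free RNA taken off. The LC427 to vehicle ratio changed side of 1 in 7 of 64 alternatives in cycling cells and in 7 of 64 in other cells, and the cause was not tested.
In cycling cells, a minimum of 2000 UMIs gave 1.56 in CD8 T-like, 0.975 in macrophage-like, 0.637 in NK-like and 1.19 in dendritic-like cells, and a minimum of 500 UMIs 1.06 in NK-like cells. At most 5% mitochondrial UMIs gave 0.986 in macrophage-like and 0.557 in dendritic-like cells. Naming by own markers gave 1.05 in CD8 T-like, 1.06 in macrophage-like, 1.80 in dendritic-like and 1.27 in Tm4sf1 Sox9 cells. Clustering with the cycle genes kept gave 1.33 in CD8 T-like and 1.06 in NK-like cells, and resolution 2 gave 0.986 in macrophage-like, 1.05 in NK-like and 0.539 in dendritic-like cells. Thinning to 1000 UMIs gave 1.10 in CD8 T-like, 0.814 in macrophage-like, 1.41 in dendritic-like and 1.54 in Tm4sf1 Sox9 cells. Macrophage-like cells had 0.981 with both gate genes required, 1.00 with 2 gate UMIs, 0.881 with the libraries scaled to the median of all genes and 0.832 with free RNA off.
In other cells, thinning gave 0.982 in CD8 T-like, 0.907 in NK-like, 1.04 in macrophage-like and 1.12 in Tm4sf1 Sox9 cells. Taking off free RNA gave 2.22, 0.595, 0.297 and 3.79 in the same groups. Leaving out other cells with any UMI of the cycle lists gave 1.16 in CD8 T-like and 0.360 in Tm4sf1 Sox9 cells, requiring both gate genes 1.39 in Tm4sf1 Sox9 cells, and scaling 1.06 in macrophage-like cells.
Counts of members over the cell groups were 247 higher and 7 lower in cycling than in other cells. They were 39 higher and 14 lower with LC427 in cycling cells, and 22 higher and 4 lower in other cells. Without a UMI minimum these 6 counts were 435, 21, 85, 38, 88 and 29. Thinning gave 72, 3, 8, 8 and 10 for the first 5. At 50 UMIs, 158 were higher in cycling cells, 25 higher and 5 lower with LC427 there, and 13 higher in other cells. At 2-fold, 3 were lower in cycling cells, 15 higher and 1 lower with LC427 there, and 14 higher and 2 lower in other cells. With both gate genes required 12 were lower in cycling cells and 46 higher with LC427 in other cells, and with 2 gate UMIs 9 lower in cycling and 37 higher in other cells. The count lower with LC427 was 27 in cycling cells at 5% mitochondrial UMIs, and 7 in other cells with own markers and 7 with scaling. Other cells without cycle UMIs gave 141 higher in cycling cells, and 5 higher and 2 lower with LC427 in other cells.
Hist1h1e in cycling dendritic-like cells was 1.23 at 2000 UMIs and 1.02 with own markers, and Hist1h2ap in macrophage-like other cells 0.871 when thinned. The free RNA and cycle-list alternatives were chosen after seeing the data, and the free RNA step was left out for dendritic-like cells. There the estimate of free RNA exceeded the histone level in other cells of both libraries and in cycling LC427 cells. No paired analysis was possible because each group is 1 library, and for the same reason no library could be left out.
Depth limits the small groups most: cycling LC427 NK-like cells had 125 histone UMIs.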

Other observations

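Histone levels in clusters outside the 5 cell groups were read in the same way. A T cell cluster led by Tnfrsf4, Icos and Ikzf2, genes of regulatory T cells among others, had 1983 CPM (1883 to 2086) in 117 cycling LC427 cells and 1676 CPM (1539 to 1821) in 41 cycling vehicle cells, against 271 and 249 CPM in its other cells. A cluster led by Ikzf2, Cd7 and Klra7 had 1630 CPM (1307 to 2008) in 20 cycling LC427 cells and 2747 CPM (2529 to 2978) in 46 cycling vehicle cells, the opposite order. Its other cells had 376 and 271 CPM.

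A small T cell cluster led by Il13, Penk and Lgals7 had the highest histone level of these clusters, 6076 CPM (5464 to 6737) in 21 cycling LC427 cells, of which 2177 CPM were H4. Its other cells had 344 CPM with LC427 and 272 CPM with vehicle. Cells without Mki67 or Top2a UMIs had 314 and 358 CPM in the cluster led by Igkc and Ighm, and 396 and 371 CPM in that led by Mmp9 and Ctsk. These are values of single libraries, with no replicate check.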
